A study of Mus musculus with 15 samples.

Results

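Lymphoid tissue keeps its compartments in place with chemokines that stromal cells release without any infection. The genes described here are 9 of that system in the mouse spleen. They are the ligand genes Ccl19, Ccl21a, Ccl21c, Cxcl12 and Cxcl13, the receptor gene Cxcr4, and the atypical receptor genes Ackr1, Ackr2 and Ackr3. The genes were given as a list by symbol, and each was measured by 1 feature with that single symbol, so that 9 of 9 were found among 22206 tested features. CCL19 and CCL21 bind CCR7 and draw T cells and dendritic cells into the T cell zone, CXCL13 binds CXCR5 and forms B cell follicles, and CXCL12 binds CXCR4 and retains progenitors, plasma cells and lymphocytes near stroma. Atypical receptors bind chemokines without the usual G protein signaling. ACKR3 takes up CXCL12, ACKR2 degrades inflammatory CC chemokines, and ACKR1 binds many chemokines on venules and red cells. Cxcr4 encodes a signaling receptor and is therefore neither a chemokine nor a scavenger.

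Spleen RNA of 15 male C57bl/10 mice was hybridized to 1 Clariom S array per mouse, with 6 intact mice that had no operation and 3 mice each at 1, 3 and 7 days after removal of 70% of the liver under isoflurane anesthesia. No genetic change is named for any group, the age of the mice is not given in the sources used here, and the spleens of a group are labelled as biological replicates, so that p values measure the spread between these mice. Sham-operated mice were not on these arrays, so that the loss of liver tissue cannot be told apart from anesthesia and laparotomy. The labels number the intact spleens from 1 to 6 and the spleens of each day from 1 to 3. Days 1 and 7 were compared with intact spleens 1 to 3, and day 3 with intact spleens 4 to 6, so that days 1 and 7 shared their controls.

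The spleens 1 to 3 and 4 to 6 stood apart from each other in 131 of the 22206 features (limma, adjusted p under 0.05), and intact spleens 1 and 2 carried pancreatic acinar transcripts, with a mean log2 level of 15.1 and 12.7 over 17 acinar genes against 3.61 to 7.97 on the other 13 arrays. Lower acinar levels were present on some of these, with Amy2a5, a pancreatic amylase gene, at 16.7 on day 7 replicate 3, 15.8 on intact spleen 4 and 13.5 on day 1 replicate 1, against 19.9 and 19.8 on intact spleens 1 and 2. The comparisons of days 1 and 7 rest on these 2 spleens, and their differences in the 9 genes are therefore also given without them. Those of other genes and of gene lists are given against intact spleens 1 to 3 only. All values are log2 levels as the authors normalized them by RMA, with array medians between 4.74 and 4.89. The median of 5222 features that their IDs mark as negative controls lay between 5.05 and 5.36 on the arrays. Ccl21a, Ccl21c, Cxcl12, Cxcl13 and Cxcr4 were above that control median on 15 of 15 arrays, Ackr1 on 14, Ccl19 on 13, Ackr3 on 2 and Ackr2 on 1. Differences of Ackr2 and Ackr3 were therefore measured at low signal. The labelled tissue had the markers of lymphocytes, with a mean log2 level of 8.21 to 11.7 over 10 B cell genes and of 6.57 to 9.01 over 11 T cell genes. These lists do not tell spleen from other lymphoid tissue.

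None of the 9 genes passed limma at an adjusted p under 0.05 after resection, in any of the comparisons with intact spleen. On day 1 the count was 0 of 9 at an adjusted p under 0.05, where 0% of all features passed, and 4 of 9 at an unadjusted p under 0.05, where 7.1% of all features did. These 4 were Ackr3, Ccl21a and Ccl21c, which were higher, and Ccl19, which was lower. Ccl21a and Ccl21c are not separate observations, and with Ccl21c left out the count was 3 on day 1, 1 on day 7 and 5 for day 7 against day 1. On day 3 the count was 0 of 9 (background 0.00901%), with 1 of 9 at an unadjusted p under 0.05 (background 9.04%), which was Ackr3, higher than in intact spleen. On day 7 it was 0 of 9 (background 0%), with 2 of 9 at an unadjusted p under 0.05 (background 10.4%), which were Ccl21a and Ccl21c, lower than in intact spleen. Between day 7 and day 1 the count was 0 of 9 (background 0.0585%), with 6 of 9 at an unadjusted p under 0.05 (background 12.7%). Ccl21a, Ccl21c, Cxcl12, Cxcr4 and Ackr3 were lower on day 7 than on day 1, and Ackr1 was higher. With a fold of at least 2 as well as an unadjusted p under 0.05, 4 of 9 passed on day 1 (background 2.07%), 1 on day 3 (background 2.03%), 2 on day 7 (background 3.47%) and 4 for day 7 against day 1 (background 5.39%). Ackr3, whose fold is uncertain at its low signal, is in the counts of day 1 and of day 7 against day 1. It is the only gene in that of day 3.

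Counted by arrays that did not overlap between the groups, 4 genes stood apart on day 1 (Ccl19, Cxcl12, Ackr1 and Ackr3), where 15% of all features did. On day 3 the count was 1 (Cxcr4, background 12.2%), on day 7 it was 3 (Ccl19, Ccl21a and Ccl21c, background 16.2%), and for day 7 against day 1 it was 5 (Ccl21a, Ccl21c, Cxcl12, Ackr1 and Ackr3, background 17.7%). Between the intact sets, 0 of 9 genes passed at an adjusted p under 0.05 (background 0.59%), 2 at an unadjusted p under 0.05 (Ccl19 and Cxcl13, background 11.6%) and both of these also by fold (background 4%), while 3 did not overlap (Ccl19, Cxcl13 and Cxcr4, background 18%). The change on day 3 was compared with that on day 1 and that on day 7 with that on day 3. In these tests 0 of 9 genes passed (background 0% and 0%), with 1 (Cxcr4, background 5.08%) and 0 (background 5.84%) at an unadjusted p under 0.05. The median log2 difference of the 9 genes was 0.54 on day 1, -0.37 on day 3 and -0.21 on day 7, while the median of all tested features was 0.0022, -0.0038 and -0.0010.

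**Figure D1:**
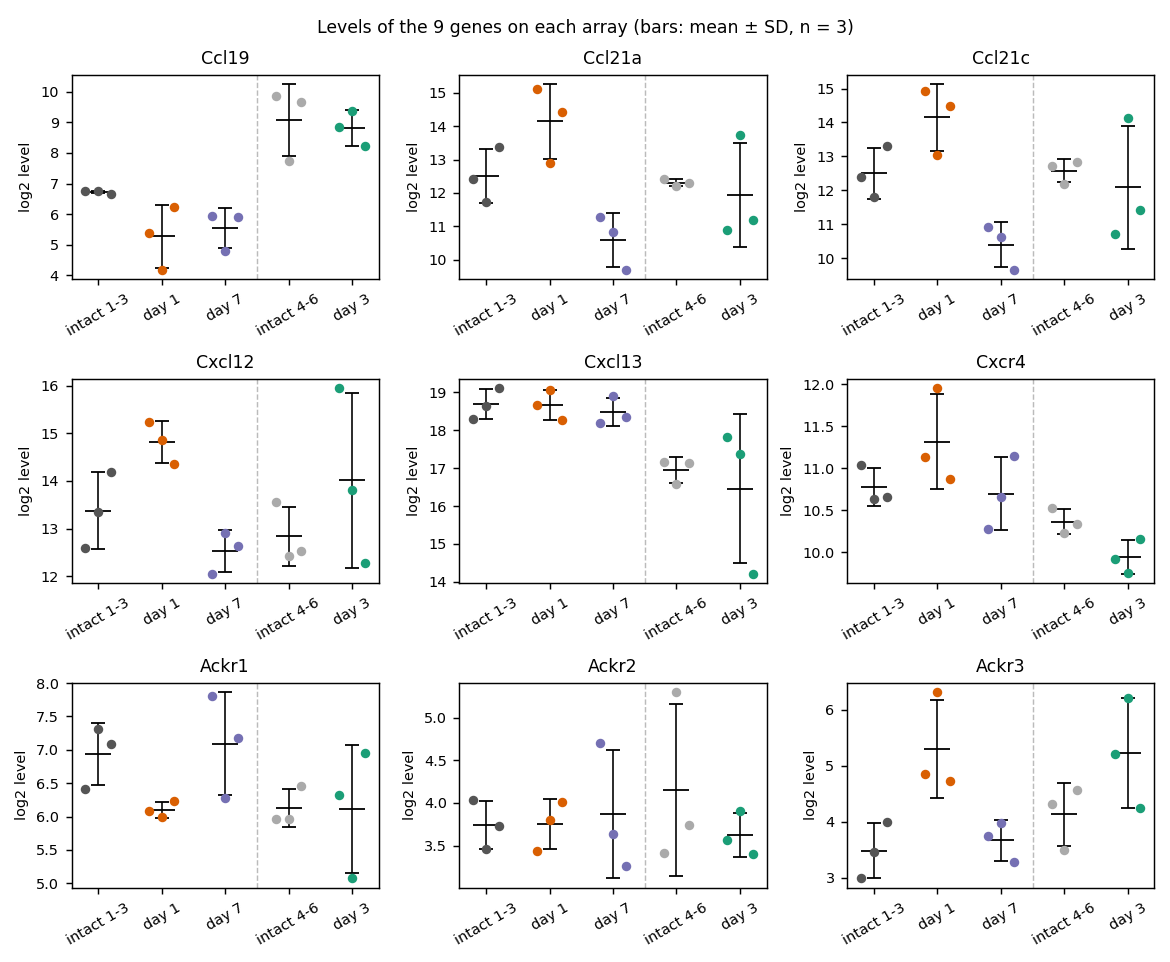
Log2 level (vertical axis) of each of the 9 genes on each array, with intact spleens 1 to 3, day 1 and day 7 left of the dashed line and intact spleens 4 to 6 and day 3 right of it. Points are arrays in the order of their replicate numbers and bars are the mean ± SD (n = 3), and the Ccl21a points of day 7 lie below every intact array.

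**Figure D2:**
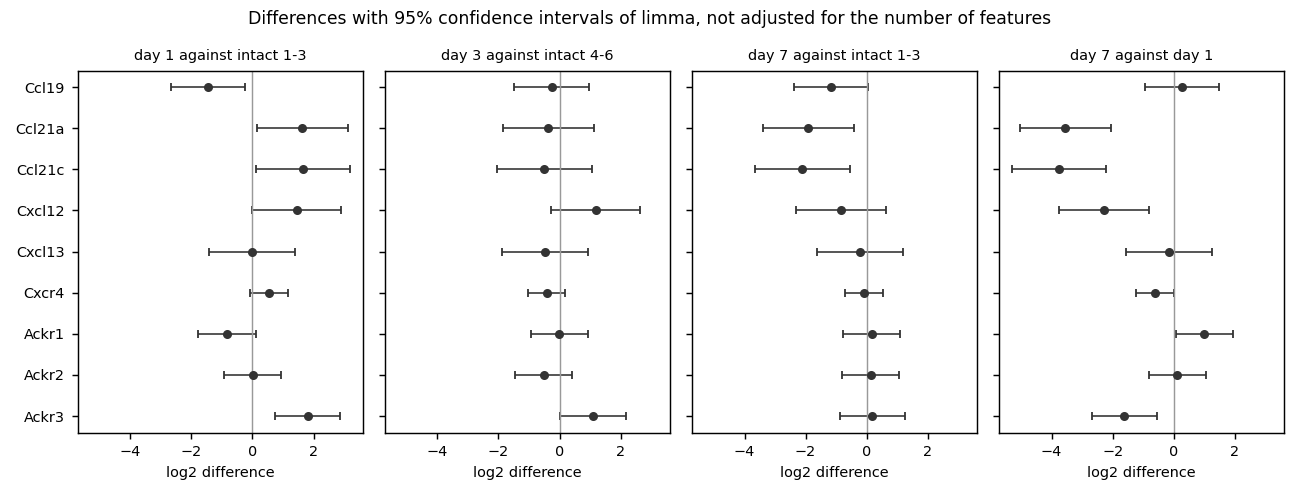
Log2 differences (horizontal axis) of the 9 genes in the comparisons named above the panels, with points for the estimate and bars for the 95% confidence interval of limma. The intervals of Ccl21a and Ccl21c lie above 0 on day 1, below 0 on day 7 and farthest below 0 for day 7 against day 1.

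The CCR7 ligand CCL21 is made by fibroblastic stroma of the T cell zone, and mice carry several nearly identical copies of its gene. The transcript measured as Ccl21a was higher on day 1 and lower on day 7 than in intact spleens 1 to 3, by 3.11-fold and 3.77-fold. Its log2 levels were 12.43, 11.73 and 13.37 in intact spleens 1 to 3. On day 1 they were 15.10, 12.91 and 14.42, and on day 7 they were 11.27, 10.82 and 9.69. All 3 arrays of day 7 lay below all 3 intact arrays, while 1 array of day 1 lay below the highest intact array. The difference was 1.64 ± 0.70 on day 1 (SE, n = 3 against 3, limma, unadjusted p = 0.034, adjusted p = 0.678). On day 7 it was -1.91 ± 0.70 (SE, limma, unadjusted p = 0.016, adjusted p = 0.355). Without intact spleens 1 and 2, the differences were 0.78 and -2.77, against the single remaining array, which was the highest of the 3. Day 7 replicate 3, which had the highest acinar level after intact spleens 1 and 2, was also the lowest array of Ccl21a, and without it the difference of day 7 was -1.46. Day 1 replicate 1 had the highest acinar level of its day (mean 5.68) and the highest Ccl21a level of all arrays. The part of acinar material in the Ccl21a levels was not tested.

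Between day 7 and day 1, Ccl21a differed by -3.55 ± 0.70 on the log2 scale (SE, n = 3 against 3), an 11.7-fold lower level with no overlap of the arrays and a 95% confidence interval from -5.05 to -2.05. The adjusted p was 0.059 from limma, just outside the threshold, and it was 0.043 after the array medians were made equal, 0.049 with a trended and robust prior and 0.085 when only the 6 arrays compared were fitted. On day 3, the levels were 10.89, 13.74 and 11.20, against 12.43, 12.21 and 12.29 in intact spleens 4 to 6. The array of day 3 replicate 2 was above all intact arrays of the set and the other 2 were below them, and the difference was -0.37 ± 0.70 (SE, limma adjusted p = 0.927). Without day 3 replicate 2 it was -1.26, and without replicate 1 it was 0.16. The change on day 3 differed from that on day 1 by -2.00 ± 0.99 (SE, limma, unadjusted p = 0.062, adjusted p = 0.940), so that the days were not shown to differ in this way.

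Ccl21c cannot be counted as a second observation of this pattern. Its feature and a feature of Ccl21b had equal values on 15 of 15 arrays, and the largest gap between Ccl21c and Ccl21a on any array was 0.54. Gm13304 and Gm10591, which RefSeq lists with Ccl21b and Ccl21c among their older names, were the genes most like Ccl21a over the 15 arrays when the 9 genes and Ccl21b were left out of the search, each value taken minus the mean of its set of arrays, with Pearson's r of 0.98 and 0.98, beside 0.99 for Ccl21c. The largest gap to Ccl21c on any array was 1.27 for Gm13304 and 3.36 for Gm10591, so that their levels differed from it. The features of the family varied together, and which transcripts each of them reads was not tested. Ccl21c had log2 levels of 12.40, 11.80 and 13.30 in intact spleens 1 to 3. On day 1 it was at 14.92, 13.03 and 14.49, and on day 7 at 10.93, 10.62 and 9.65. As for Ccl21a, all day 7 arrays were below the intact arrays and 1 day 1 array was below the highest of them. The differences were 1.65 ± 0.72 on day 1, -0.49 ± 0.72 on day 3 and -2.11 ± 0.72 on day 7 (SE, adjusted p of 0.680, 0.902 and 0.334 from limma), and without intact spleens 1 and 2 those of days 1 and 7 were 0.84 and -2.91. Day 7 was 13.5-fold lower than day 1, a difference of -3.75 (adjusted p = 0.058 from limma).

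Ccl19 encodes the other ligand of CCR7 and lies on chromosome 4 with Ccl21a, with 16494 bases between the 2 genes in GRCm38.p6 (Ccl19 at chr4:42754525-42756365 and Ccl21a at chr4:42772860-42773991). The 250 bases before each start are shown because the mean of Ccl21a was higher and that of Ccl19 lower than in intact spleen on day 1. Sequences are from RefSeq, which held promoters for 8 of the 9 genes, and are written 5′ to 3′ on the strand of the gene. Capitals mark matches to any of 6 motifs searched on both strands. These were the STAT motif TTCNNNGAA, which 7.02% of 32851 promoter windows of this length hold, and the core of the hypoxia response element, ACGTG (16.6%). The others were the half-site of the glucocorticoid receptor, written AGAACA (16.1%), the NF-kB consensus (7.25%) and the core of the interferon response element, GAAA followed by any 2 bases and GAAA (2.98%). The last was the TATA box, given by the letters TATAAA (12.4%).
Ccl19 (chr4:42756366-42756615, minus strand): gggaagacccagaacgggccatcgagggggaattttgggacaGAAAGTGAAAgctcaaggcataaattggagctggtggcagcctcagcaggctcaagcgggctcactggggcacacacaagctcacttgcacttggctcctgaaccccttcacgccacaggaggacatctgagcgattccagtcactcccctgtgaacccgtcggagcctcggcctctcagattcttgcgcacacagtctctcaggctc
Ccl21a (chr4:42773992-42774241, minus strand): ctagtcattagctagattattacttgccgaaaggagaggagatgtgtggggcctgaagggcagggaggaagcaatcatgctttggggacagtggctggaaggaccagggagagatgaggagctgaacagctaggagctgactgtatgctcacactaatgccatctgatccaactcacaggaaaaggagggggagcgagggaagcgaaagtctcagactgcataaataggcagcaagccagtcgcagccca
The Ccl19 window held 1 match, to the core of the interferon response element, from 208 to 199 bases before the start, with no overlap with another motif. The Ccl21a window held 0 matches. A match is a description of letters and not a site.

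Ccl19 levels followed the set of arrays more than the day. In intact spleens 1 to 3 the log2 levels were 6.75, 6.76 and 6.67. They were 5.40, 4.17 and 6.24 on day 1 and 5.94, 4.79 and 5.91 on day 7. Every array of both days lay below these 3 intact arrays, and on each day 1 of the 3 arrays (replicate 2) was also below the median of its negative controls. The difference was -1.45 ± 0.57 on day 1 (SE, n = 3 against 3, limma, unadjusted p = 0.022, adjusted p = 0.649), a 2.74-fold lower level, and without day 1 replicate 2 it was -0.90. On day 7 it was -1.18 ± 0.57 (SE, limma adjusted p = 0.493), a 2.26-fold lower level, and without day 7 replicate 2 it was -0.80. Without intact spleens 1 and 2 the differences were -1.40 and -1.12, since the 3 intact arrays were nearly equal. The mean of Ccl19 on day 7 was above that of day 1, with a difference of 0.27 ± 0.57 and a 95% confidence interval from -0.94 to 1.49.

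In intact spleens 4 to 6, Ccl19 stood at 9.86, 7.73 and 9.66, and on day 3 at 8.86, 9.39 and 8.22. The day 3 arrays lay inside the range of these intact arrays, with a difference of -0.26 ± 0.57 (SE, limma adjusted p = 0.937). The 9 arrays of intact spleens 1 to 3, day 1 and day 7 ran from 4.17 to 6.76 and the 6 arrays of intact spleens 4 to 6 and day 3 from 7.73 to 9.86, with no overlap. Intact spleens 4 to 6 were 5.13-fold higher than spleens 1 to 3, a difference of 2.36 ± 0.57 (SE, limma adjusted p = 0.088). A comparison of days 1 or 7 with intact spleens 4 to 6 therefore gave much larger differences, -3.81 (adjusted p = 0.0048 from limma) and -3.54 (adjusted p = 0.0036 from limma), and a comparison of day 3 with intact spleens 1 to 3 gave 2.10 (adjusted p = 0.098 from limma). For Ccl19, a difference between day 3 and the other days cannot be told apart from the difference between the sets. RefSeq also lists Ccl19 pseudogenes, and whether the Ccl19 feature reads them was not tested.

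**Figure D3:**
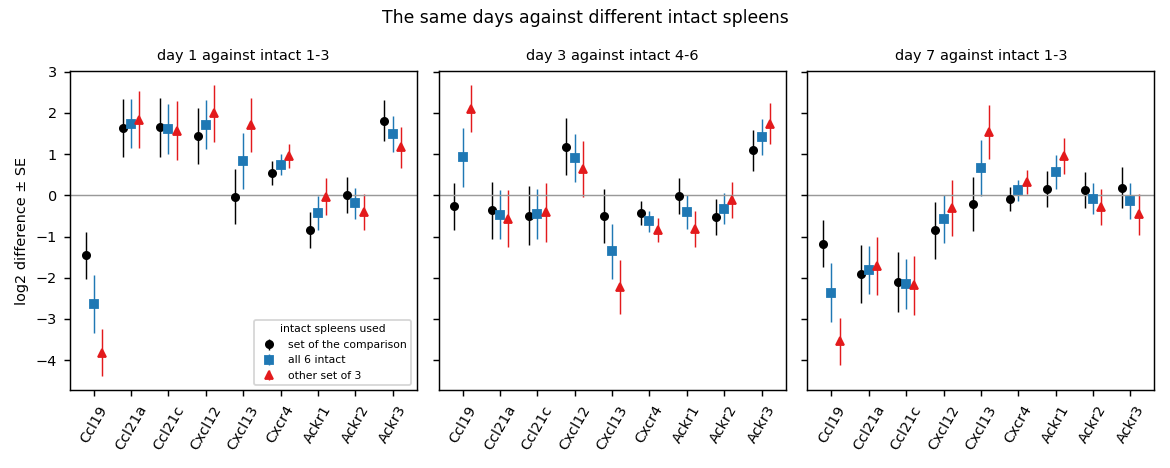
Log2 difference ± SE (vertical axis) of each gene on each day against the set of 3 intact spleens of the comparison (circles), all 6 intact spleens (squares) and the other set of 3 (triangles). Ccl19 and Cxcl13 vary most with the intact spleens chosen, and on day 1 all genes except Cxcl13 and Ackr2 keep their sign under the 3 choices.

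Ccr7, the shared receptor of CCL19 and CCL21 on naive T cells and mature dendritic cells, differed little from intact spleen. Its log2 levels were 9.67, 9.07 and 9.92 in intact spleens 1 to 3, 10.01, 9.45 and 9.50 on day 1 and 9.09, 9.23 and 9.04 on day 7. Day 7 arrays overlapped the intact arrays, and the differences were 0.10 ± 0.29 on day 1, -0.37 ± 0.29 on day 3 and -0.43 ± 0.29 on day 7 (SE, adjusted p of 0.969, 0.773 and 0.649 from limma). All day 7 arrays lay below all day 1 arrays, as for 17.7% of all features in either direction. That difference was -0.54 ± 0.29 (SE, limma, unadjusted p = 0.082, adjusted p = 0.479). Ackr4, the atypical receptor that takes up CCL19 and CCL21, was below the array median on all 15 arrays, between 2.88 and 4.38, so that no change could be read from it.

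Cxcl12, Cxcr4 and Ackr3 encode a ligand, its signaling receptor and its scavenger. On day 1 all of them had a higher mean than intact spleens 1 to 3, Cxcl12 by 2.72-fold and Cxcr4 by 1.45-fold, while for Ackr3 no fold is given, since the intact arrays lay below the median of the negative controls. On day 7 the means of Cxcr4 and Ackr3 were near those of intact spleen, and that of Cxcl12 was 1.8-fold lower. The windows before the starts of the ligand and of the scavenger are shown because these 2 genes were higher on every day 1 array than on every intact array of the set.
Cxcl12 (chr6:117168285-117168534, plus strand): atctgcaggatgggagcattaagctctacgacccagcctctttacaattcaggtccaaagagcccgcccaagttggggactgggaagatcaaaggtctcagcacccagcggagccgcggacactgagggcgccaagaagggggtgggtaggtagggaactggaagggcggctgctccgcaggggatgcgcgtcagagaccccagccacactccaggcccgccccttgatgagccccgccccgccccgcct
Ackr3 (chr1:90203730-90203979, plus strand): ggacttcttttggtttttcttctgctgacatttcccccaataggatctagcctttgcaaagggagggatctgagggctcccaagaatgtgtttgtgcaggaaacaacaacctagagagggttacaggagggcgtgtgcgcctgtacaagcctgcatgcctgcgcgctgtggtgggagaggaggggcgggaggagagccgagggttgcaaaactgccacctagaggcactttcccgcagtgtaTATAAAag
With the same 6 motifs, the Cxcl12 window held 0 matches and the Ackr3 window 1, TATAAA from 8 to 3 bases before the start.

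Cxcl12 had log2 levels of 12.59, 13.35 and 14.20 in intact spleens 1 to 3 and 15.23, 14.86 and 14.37 on day 1. All day 1 arrays lay above all 3 intact arrays, with a difference of 1.44 ± 0.69 (SE, n = 3 against 3, limma, unadjusted p = 0.053, adjusted p = 0.706). Against the remaining intact array it was 0.62 without intact spleens 1 and 2. On day 7, the levels were 12.04, 12.91 and 12.63, which overlapped the intact arrays, with a difference of -0.85 ± 0.69 (SE, limma adjusted p = 0.730), or -1.67 without intact spleens 1 and 2 and -0.44 without intact spleen 3. Day 7 lay below day 1 on all arrays, by -2.29 ± 0.69 (SE, limma, unadjusted p = 0.0046, adjusted p = 0.172), a 4.9-fold lower level. On day 3, the arrays spread widely, with 15.95, 13.80 and 12.28 against 13.55, 12.41 and 12.54 in intact spleens 4 to 6. Of the day 3 arrays, 2 were above and 1 was below all intact arrays of the set, and the difference was 1.18 ± 0.69 (SE, limma adjusted p = 0.660), or 0.21 without day 3 replicate 1 and 2.05 without replicate 3.

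Ackr3 was at low signal in intact spleen, with log2 levels of 3.00, 3.46 and 3.99 in spleens 1 to 3 and 4.32, 3.49 and 4.57 in spleens 4 to 6. On day 1 it was at 4.86, 6.31 and 4.72, and on day 3 at 5.20, 6.21 and 4.25. Only day 1 replicate 2 and day 3 replicate 2 exceeded the median of the negative controls. The difference on day 1 was 1.81 ± 0.50 (SE, n = 3 against 3, limma, unadjusted p = 0.0026, adjusted p = 0.582), with all arrays above the intact arrays of the set, and 1.31 without intact spleens 1 and 2. On day 3 it was 1.09 ± 0.50 (SE, limma, unadjusted p = 0.045, adjusted p = 0.541), with overlap of the arrays, and 0.60 without day 3 replicate 2. On day 7, Ackr3 stood at 3.75, 3.98 and 3.28, with a difference of 0.19 ± 0.50 and a 95% confidence interval from -0.88 to 1.25, or -0.32 without intact spleens 1 and 2. Day 7 was below day 1 with no overlap (difference -1.63 ± 0.50, SE, limma, unadjusted p = 0.0054, adjusted p = 0.180). The changes on day 3 and day 1 differed by -0.72 ± 0.70 (SE, limma adjusted p = 0.957).

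Cxcr4 ran from 9.75 to 11.95 over the 15 arrays. Its log2 levels were 11.04, 10.64 and 10.66 in intact spleens 1 to 3, 11.13, 11.95 and 10.87 on day 1 and 10.28, 10.66 and 11.15 on day 7. Day 1 replicate 2 was the highest array, and the other arrays of these groups overlapped. The differences were 0.54 ± 0.29 on day 1 and -0.085 ± 0.29 on day 7 (SE, adjusted p of 0.755 and 0.958 from limma), and 0.66 and 0.034 without intact spleens 1 and 2. Without day 1 replicate 2, that of day 1 was 0.22. On day 3, the levels of 9.91, 9.75 and 10.15 lay below all of those of intact spleens 4 to 6, 10.53, 10.22 and 10.34, with a difference of -0.42 ± 0.29 (SE, limma adjusted p = 0.724). The mean was thus higher on day 1 and lower on day 3, and the changes differed by -0.96 ± 0.41 (SE, limma, unadjusted p = 0.033, adjusted p = 0.940).

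Cxcl13, which follicular dendritic cells and marginal reticular cells make, was close to the upper end of the scale. The log2 levels were 18.31, 18.65 and 19.11 in intact spleens 1 to 3, 18.67, 19.05 and 18.26 on day 1 and 18.19, 18.90 and 18.36 on day 7, with overlap of all groups. The highest of these lay 0.82 below 19.9, the largest value on the arrays. The difference was -0.029 ± 0.66 on day 1 with a 95% confidence interval from -1.44 to 1.38, and -0.21 ± 0.66 on day 7 with an interval from -1.61 to 1.20 (SE, adjusted p of 0.999 and 0.955 from limma). Without intact spleens 1 and 2 they were -0.45 and -0.63. Like Ccl19, Cxcl13 separated the sets, but in the opposite direction. Intact spleens 4 to 6 had 17.17, 16.57 and 17.12 and day 3 had 17.81, 17.37 and 14.20, all below the 9 arrays of the other set, which ran from 18.2 to 19.1. The difference between the intact sets was -1.73 ± 0.66 (SE, limma, unadjusted p = 0.019, adjusted p = 0.309), and that of day 3 was -0.49 ± 0.66 (SE, limma adjusted p = 0.888). Day 3 replicate 3 was far below the other arrays, and without it the difference of day 3 was 0.64.

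Cxcr5, the receptor of CXCL13 on follicular B cells and follicular helper T cells, had log2 levels of 5.92, 6.86 and 6.61 in intact spleens 1 to 3, 7.50, 6.08 and 6.72 on day 1 and 5.78, 6.23 and 5.39 on day 7. The groups overlapped, and the differences were 0.30 ± 0.47, -0.44 ± 0.47 and -0.66 ± 0.47 on days 1, 3 and 7 (SE, adjusted p of 0.928, 0.850 and 0.681 from limma).

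Ackr1, known as the Duffy antigen receptor, had lower levels on day 1 than in intact spleens 1 to 3. They were 6.08, 5.99 and 6.23 on day 1, against 6.41, 7.31 and 7.09 in the intact spleens, with a difference of -0.84 ± 0.44 (SE, n = 3 against 3, limma, unadjusted p = 0.077, adjusted p = 0.748) and no overlap. On day 7 Ackr1 was at 7.81, 6.28 and 7.18, all above day 1, by 0.99 ± 0.44 (SE, limma, unadjusted p = 0.04, adjusted p = 0.361), or 0.63 without day 7 replicate 1. Against intact spleens 1 to 3, day 7 differed by 0.16 ± 0.44, and day 3 differed from intact spleens 4 to 6 by -0.012 ± 0.44 (SE). On day 3 the arrays were at 6.33, 5.07 and 6.95 and surrounded those of intact spleens 4 to 6, at 5.96, 5.97 and 6.46. The day 1 difference depended on the controls, since it was -0.032 against intact spleens 4 to 6, and it was -0.99 without intact spleens 1 and 2. That of day 7 was 0.0048 without them. Of the erythroid genes, 11 of 11 measured were lower on day 1, by a median of -1.52, and all 11 higher on day 7 than on day 1, by a median of 1.36, while on day 3, when Ackr1 did not differ in mean, 11 of 11 were lower by a median of -1.05. None passed limma at an adjusted p under 0.05, where at most 0.0585% of all features did in these comparisons. The mean log2 level of the list was 12.51 to 13.36 in intact spleens 1 to 3, 11.30 to 11.98 on day 1 and 11.34 to 13.64 on day 7. On day 3 it ran from 8.15 to 13.50, below and above the 11.34 to 12.67 of intact spleens 4 to 6. The part of erythroid cells in the Ackr1 result was not tested.

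Ackr2 was at low signal in spleen, below the array median on 14 of 15 arrays. Its log2 levels ran from 3.26 to 5.30, with the highest value in intact spleen 5. The differences were 0.012 ± 0.44, -0.53 ± 0.44 and 0.13 ± 0.44 on days 1, 3 and 7 (SE, adjusted p of 1.000, 0.794 and 0.960 from limma), those of days 1 and 7 were 0.024 and 0.14 without intact spleens 1 and 2, and a change was not detectable at this signal.

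Among 12 measured receptors of homeostatic chemokines and of lymphocyte positioning, such as Ccr7, Cxcr5 and the oxysterol receptor gene Gpr183, 0 passed limma at an adjusted p under 0.05 on any day. Of all features, 0%, 0.00901% and 0% passed on days 1, 3 and 7. On day 7, 10 of 12 were lower than in intact spleens 1 to 3, with a median of -0.57 and 2 of 12 lower at an unadjusted p under 0.05 (background 10.4% in either direction), while on day 1 7 of 12 were higher with a median of 0.11 and on day 3 11 of 12 were lower with a median of -0.30. Lymphotoxin, TNF and non-canonical NF-kB signals keep stromal cells producing CCL19, CCL21 and CXCL13. Of 13 measured genes of that pathway, 0 passed on any day, with medians of 0.19, 0.08 and -0.15 on days 1, 3 and 7. At an unadjusted p under 0.05, 0 passed on day 1, 2 were higher on day 3 and 2 were lower on day 7. Of 18 measured genes of signaling below chemokine receptors, 0 passed either, with medians of 0.43, -0.033 and -0.029. At an unadjusted p under 0.05, 4 of these 18 were higher on day 1 (background 7.1%). On day 3, 1 was higher and 2 were lower (background 9.04%), and on day 7, 1 was higher and 3 were lower (background 10.4%).

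No marker gene of the cells that make and follow these chemokines passed limma at an adjusted p under 0.05 on day 7 against intact spleen, where 0% of all features did. Of 21 measured genes of white pulp stroma, 16 were lower on day 7 than in intact spleens 1 to 3, with a median of -0.43 and 3 of 21 lower at an unadjusted p under 0.05, where 10.4% of all features passed in either direction, and the other 5 were higher. The stroma list was chosen with Fcer2a and Cr2 in it, which are also in the B cell list. It is therefore not a reading of stroma apart from B cells. The mean log2 level of this list was 6.03 to 6.23 on day 7, 6.48 to 6.92 on day 1 and 6.42 to 6.91 in intact spleens 1 to 3. Intact spleens 1 and 2, with the high acinar levels, were at 6.46 and 6.42. Intact spleen 3 was at 6.91, above the day 1 mean of 6.76. All 11 measured T cell genes were lower on day 7 with a median of -1.16, and 9 of 11 were higher on day 1 with a median of 0.54. On day 3, 10 of 11 were lower than in intact spleens 4 to 6, with a median of -0.50. Their mean level was 6.57 to 6.64 on day 7, 7.72 to 9.01 on day 1 and 7.16 to 8.36 in intact spleens 1 to 3. Intact spleens 1 and 2 were at 7.65 and 7.16. Intact spleen 3 was at 8.36, so that the day 1 mean of 8.30 was not above it. Il7r, the interleukin 7 receptor gene, and Lef1, a transcription factor of naive T cells, fell by 3.76 and fell by 2.49 on the log2 scale between day 1 and day 7 (adjusted p = 0.0068 and 0.037 from limma). All 10 measured B cell genes were lower on day 7 with a median of -1.33, and on day 1 the median was -0.072. On the same arrays 11 of 11 measured neutrophil genes were higher on day 7, with a median of 2.33 and a mean level of 14.74 to 16.53 against 12.60 to 14.58 in intact spleens 1 to 3. At an unadjusted p under 0.05, 6 of 11 T cell genes and 5 of 10 B cell genes were lower on day 7. By the same rule 7 of 11 neutrophil genes were higher (background 10.4% in either direction). The 13 measured endothelial genes had medians of 0.14 on day 1 and -0.23 on day 7, with 0 of 13 at an unadjusted p under 0.05 on day 7. By that rule 3 of 13 endothelial, 3 of 21 stroma, 2 of 11 T cell and 0 of 10 B cell genes were higher on day 1 (background 7.1%). For day 7 against day 1, 4 of 13 endothelial, 7 of 21 stroma, 7 of 11 T cell and 5 of 10 B cell genes were lower (background 12.7%). In whole spleen, fewer cells of a type and less RNA per cell cannot be told apart, and the part of these cells in the values of Ccl21a was not tested.

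**Figure D4:**
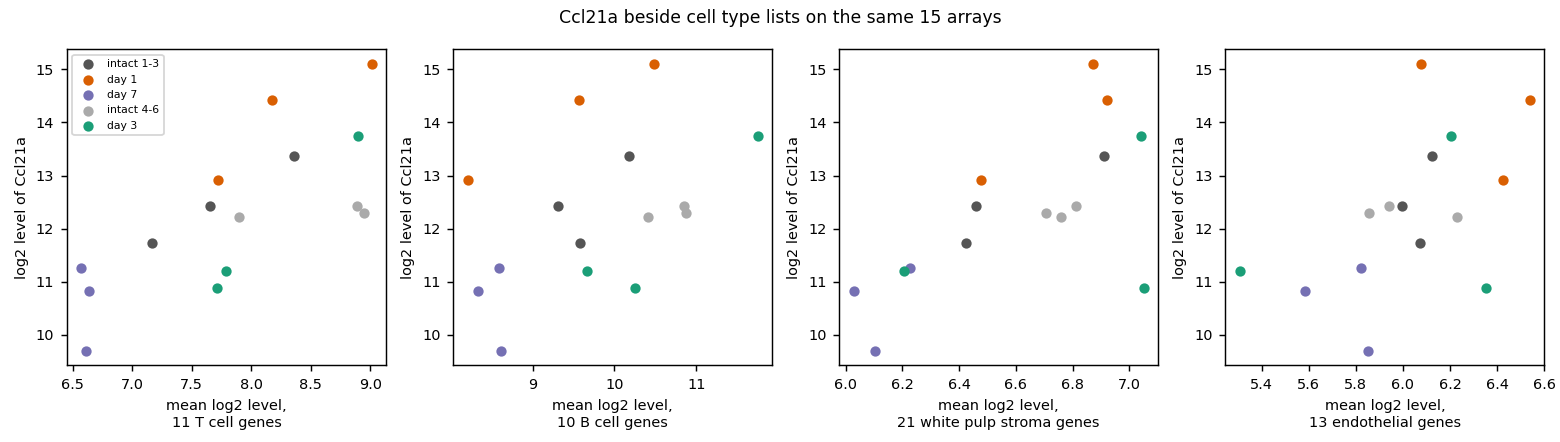
Log2 level of Ccl21a (vertical axis) against the mean log2 level of 4 gene lists (horizontal axes) on the same 15 arrays, with 1 point per array coloured by group. The day 7 arrays lie at the left end for T cell genes, between 6.57 and 6.64, and the day 1 arrays reach from 12.91 to 15.10 for Ccl21a.

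Of the 7 genes whose mean was above the array median, the transcripts most like them over the 15 arrays were sought by Pearson's r, each value taken minus the mean of its set of arrays and chosen as the highest of all genes with 1 symbol other than the 9 and Ccl21b, so that r is a description only. For Cxcl12 they were Nr2f2 (r = 0.96), a nuclear receptor gene of venous endothelium and stroma, and Selenop (r = 0.94), which encodes a selenium transport protein. For Ccl19 they were Sertad4 (r = 0.88) and the integrin gene Itgb7 (r = 0.85). For Cxcl13 they were Tmsb4x (r = 0.90), the thymosin beta gene, and Armc7 (r = 0.89, which was 0.077 where the means of the sets were not subtracted). For Cxcr4 they were Serpinb13 and Olfr812 (r = 0.87 and 0.86), and for Ackr1 Pip5k1b and Ccp110 (r = 0.90 and 0.88).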

How the data were processed

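Spleen RNA of 15 mice was measured on Clariom S mouse arrays, 1 array per spleen. According to the study's methods, the deposited log2 levels come from RMA, run by the authors in the Transcriptome Analysis Console at its defaults. RMA corrects the background, normalizes and summarizes probes, and none of these steps was redone. All features other than 6640 of array controls were tested, 22206 of 28846, of which 19572 carry 1 gene symbol in the platform annotation. No symbol is given for the other 2634. For genes with several features, the one with the highest mean was used.

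The arrays were fitted as 5 groups (intact spleens 1 to 3, intact spleens 4 to 6, day 1, day 3 and day 7) in limma 3.58.1 (R 4.3.3), with p values adjusted by the Benjamini-Hochberg method over all 22206 features and a call at an adjusted p under 0.05. Groups were formed from the labels, and intact spleens were split by their labelled numbers. SEs and 95% confidence intervals are those of limma, and precision is limited by the number of arrays. The replicate numbers mark no shared animal, and the correlation of the deviations of same-numbered arrays from their group means ran from -0.21 to 0.21, so that the arrays were not paired.

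The 9 genes and 15 lists of pathway and cell type genes were chosen with earlier results of these data known. Named besides the 9 genes were Ccr7, Cxcr5, Ackr4, list genes that passed limma (up to 4 per list) and the 2 genes most like each member. Alternatives were other intact spleens as controls, a fit of the compared arrays alone, a replicate block, a filter on the dimmest 25% of features, other priors, scalings and thresholds, and leaving out each array. Leaving out Ccl21c was added after seeing the data.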

Additional observations from a re-analysis of the deposited data

Results flagged for a closer look

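Among the 9 genes in the 6 intact spleens, 1 value lay far from the others. Ackr2 had a log2 level of 5.30 in intact spleen 5 and of 3.41 to 4.03 in the other 5, so that the gap to the nearest spleen was 0.672 of the whole range. Chance flags about 1 in 20 groups. Without intact spleen 5, the Ackr2 difference of day 3 from intact spleens 4 to 6 was 0.049, against -0.53 with it.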

How the results depend on the processing

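The precision is limited by 3 arrays per group, and by low signal for Ackr2 and Ackr3. The share of all features that passed is given in this report for the main fit only. Counts of the 9 genes under other fits therefore stand without a background. No gene passed limma on days 1, 3 or 7 when any of the 15 arrays was left out (0 of 9 each time), with the dimmest features left out, other priors or scalings, the 2 groups alone, an adjusted p under 0.01, against all 6 intact spleens, or without intact spleens 1 and 2. Against the other set of 3 intact spleens, 1 gene passed on day 1 and 1 on day 7 (Ccl19), and 3 and 2 genes passed for the differences of the changes, namely Ccl19, Cxcl13, Cxcr4 (day 3 and day 1) and Ccl19, Cxcl13 (day 7 and day 3). With the controls swapped, the difference between the intact sets is part of each of these values. The 3 genes are those whose arrays did not overlap between the intact sets. These calls are therefore no result about the days. At an unadjusted p under 0.05 with a fold of at least 2, 4, 1, 2 and 4 genes passed on days 1, 3 and 7 and for day 7 against day 1, and 2 between the intact sets. For day 7 against day 1, where 0 genes passed, 2 did with equal array medians, 2 with a trended and robust prior, and 0 to 3 when an array was left out (Ccl21c without day 3 replicate 1, Ccl21a and Ccl21c without replicate 2, and Cxcl12 too without replicate 3, which change only the shared estimate of spread). Between the intact sets 1 gene passed when only these were fitted (Cxcl13), and 0 to 1 with an array left out (Ccl19 without intact replicate 5 and Cxcl13 without day 3 replicate 3). With the replicate block, which pairs arrays that share only a number, 1 gene passed for day 7 against day 1 (Ccl21c, -3.75, adjusted p = 0.047 from limma) and 0 on days 1 and 7. Day 3 shares no number with intact spleens 4 to 6 and could not be paired. Leaving out Ccl21c left the counts at an adjusted p under 0.05 at 0 in every comparison, while at an unadjusted p under 0.05 the counts became 3 on day 1, 1 on day 7 and 5 for day 7 against day 1.

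Some differences changed sign. Against all 6 intact spleens, they were 0.84 for Cxcl13 and -0.19 for Ackr2 on day 1, 0.92 for Ccl19 on day 3, and 0.66, 0.12, -0.079 and -0.14 for Cxcl13, Cxcr4, Ackr2 and Ackr3 on day 7. Against the other set of intact spleens, they were 1.70 and -0.40 for Cxcl13 and Ackr2 on day 1, 2.10 for Ccl19 on day 3, and 1.53, 0.33, -0.28 and -0.46 for Cxcl13, Cxcr4, Ackr2 and Ackr3 on day 7. Without intact spleens 1 and 2, Cxcr4 and Ackr3 differed by 0.034 and -0.32 on day 7. With equal array medians Ackr1 differed by 0.032 on day 3, and with quantile normalization Cxcl13 by 0.027 on day 1. When an array was left out, the ranges that crossed 0 were, on day 1, -0.23 to 0.18 for Cxcl13 and -0.13 to 0.17 for Ackr2. On day 3 they were -0.94 to 0.13 for Ccl19, -1.26 to 0.16 for Ccl21a, -1.52 to 0.20 for Ccl21c, -1.17 to 0.64 for Cxcl13, -0.43 to 0.51 for Ackr1 and -0.90 to 0.049 for Ackr2. On day 7 they were -0.41 to 0.0047 for Cxcl13, -0.31 to 0.12 for Cxcr4, -0.20 to 0.56 for Ackr1, -0.29 to 0.43 for Ackr2 and -0.054 to 0.44 for Ackr3. For day 7 against day 1 they were -0.27 to 0.76 for Ccl19, -0.38 to 0.019 for Cxcl13 and -0.31 to 0.42 for Ackr2. The cause of these changes was not tested.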

Other observations

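Other cell types varied on the same arrays. Of 11 measured macrophage genes, 10 were higher on day 1 than in intact spleens 1 to 3 with a median log2 difference of 1.06, and all 11 were higher on day 3 than in intact spleens 4 to 6 with a median of 0.87. The day 3 arrays differed among themselves, with a mean level of 8.36 to 11.26 over the list, below and above the 8.77 to 9.04 of intact spleens 4 to 6. On day 7 the median was 0.023. For 11 measured neutrophil genes the medians were 0.30 on day 1 and -0.15 on day 3. In both lists 0 genes passed limma at an adjusted p under 0.05 in these comparisons, where at most 0.00901% of all features did. At an unadjusted p under 0.05, 4 of 11 macrophage genes were higher on day 1 (background 7.1%) and 1 on day 3 (background 9.04%). Of the neutrophil genes, 0 passed that rule on day 1 and 1 was higher on day 3.

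Tissues next to the spleen were also looked for. The 9 measured genes of lymph node venules and lymphatic vessels, which include Ccl21a, had medians of -0.0027, -0.24 and -0.15 on days 1, 3 and 7. The 17 pancreatic acinar genes had medians of -6.40, -0.70 and -5.38. The medians were 0.38, 0.18 and -0.22 for 7 genes of fat, -0.13, 0.0094 and -0.18 for 8 genes of liver, and 0.027, 0.61 and -0.25 for 8 genes of the capsule mesothelium. Of these lists, 0 genes passed limma at an adjusted p under 0.05 on any day, where at most 0.00901% of all features did. At an unadjusted p under 0.05, 17 of 17 acinar genes were lower on day 1 (background 7.1%) and 16 on day 7 (background 10.4%). Their mean was 15.1, 12.7 and 4.84 in intact spleens 1 to 3, the controls of these days. On day 3, 4 of 8 mesothelium genes were higher by that rule (background 9.04%). Between the intact sets, Serpina1a of the liver list was lower in spleens 4 to 6, by -4.68 (adjusted p = 2.3e-05 from limma, background 0.59%). The 8 liver genes split into 4 higher and 4 lower there, with a median of -0.10. All 17 acinar genes were lower in spleens 4 to 6, with a median of -5.62.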
